A study of Mus musculus with 3 samples.

Results

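Transcript levels of 10 genes of nitric oxide and arginine metabolism were measured by bulk RNA sequencing in the lungs of 3 male C57Bl/6 mice. The genes were chosen by name from the 53342 rows of the count table, by their roles in the pathway: the nitric oxide synthases Nos1, Nos2 and Nos3, the arginases Arg1 and Arg2, the citrulline-recycling enzymes Ass1 and Asl, the cationic amino acid transporters Slc7a1 and Slc7a2, and Gch1 of cofactor synthesis. All 10 were found. Each mouse had received microparticles made from Mycobacterium abscessus into the trachea, in 50 µL at the equivalent of 1000000 bacteria, to make granulomas form. Each also received daily injections under the skin of MIA-602, which blocks the receptor for growth hormone-releasing hormone, at 5 µg for 3 weeks. The 3 samples, called mouse 4, mouse 5 and mouse 6 after the last digit of their labels, form 1 group, with 1 library per mouse. No lung without the challenge and none without the drug was analysed here, so the values are levels and differences between mice, not effects of either.

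Nitric oxide synthases turn arginine and oxygen into nitric oxide and citrulline, with tetrahydrobiopterin as a cofactor. In mouse macrophages activated by interferon-gamma the inducible enzyme makes nitric oxide in amounts that restrain mycobacteria. Arginases compete for the same substrate and split it into ornithine, the precursor of polyamines and proline, and urea, while 2 further enzymes rebuild arginine from citrulline.

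Library totals ranged from 31579465 to 43845715 counts. Levels are given in CPM (counts per 1000000 after scaling of library size with edgeR's TMM factors), for mice 4, 5 and 6 in that order, or as mean ± SD over the 3 mice (n = 3). Levels of different genes are compared only in CPM per kilobase of exon. All 10 genes passed the filter on low counts and all 10 reached 1 CPM in each mouse, as did 28.5% of all genes of the table. The 5 markers of alveolar type 2 cells, which define lung, were all detected and summed to 21152, 28576 and 25719 CPM. In these bulk samples fewer cells of a type and less RNA per cell cannot be told apart. Skeletal muscle and stratified epithelium transcripts stood apart in mouse 4. The 6 skeletal muscle markers summed to 4791, 1760 and 1508 CPM in mice 4, 5 and 6, and the 4 squamous epithelium markers to 341, 126 and 109.6 CPM. The 3 club cell markers were lower in mouse 4, at a sum of 8953, 24443 and 21641 CPM.

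Promoter windows, from 250 bases before to 50 after the transcript start, were matched for 4 of the 10 genes in the RefSeq tables of build GRCm38.p6: Nos1, Slc7a1, Ass1 and Gch1. Those of Ass1 and Gch1 are shown because these 2 inducible enzymes of the pathway differed in how far they varied between the lungs. Ass1 lies at chr2:31470020-31470319 on the plus strand and Gch1 at chr14:47189364-47189663 on the minus strand, each written 5′ to 3′. Capitals mark matches on either strand to the promoter elements searched. These were TATAAA for the TATA box, the letters CCAAT for the box of that name, GGGCGG for the GC box that Sp1 binds, CACGTG for the E-box and TGACG for the core of the cyclic AMP response element.
Ass1: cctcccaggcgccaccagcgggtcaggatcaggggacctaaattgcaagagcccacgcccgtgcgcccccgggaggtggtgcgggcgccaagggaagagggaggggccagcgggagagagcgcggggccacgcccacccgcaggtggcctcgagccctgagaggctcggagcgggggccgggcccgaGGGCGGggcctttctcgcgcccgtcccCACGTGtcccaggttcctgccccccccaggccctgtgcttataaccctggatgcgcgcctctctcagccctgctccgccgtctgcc
Gch1: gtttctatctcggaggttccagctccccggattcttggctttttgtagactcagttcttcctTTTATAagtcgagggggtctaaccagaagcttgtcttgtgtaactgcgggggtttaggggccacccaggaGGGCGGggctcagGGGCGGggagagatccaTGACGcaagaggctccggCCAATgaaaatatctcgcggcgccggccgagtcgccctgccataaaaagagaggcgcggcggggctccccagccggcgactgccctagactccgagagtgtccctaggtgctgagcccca
In the Ass1 window a GC box began at position -63 and an E-box at position -36, counted from the RefSeq start. The GENCODE annotation, which gave the gene coordinates below, begins Ass1 at 31470207, inside this window. Both elements thus lie within the gene by GENCODE. The E-box letters occur in 7.15% and the GC box letters in 35.7% of the 32851 promoter windows of the same length. In the Gch1 window GC boxes began at -118 and -105, the cyclic AMP response element core at -88, a CCAAT box at -70, and the TATA letters, on the opposite strand, at -188. The core is found in 20.8% of all windows, the CCAAT box in 37.4% and the TATA letters in 13.6%. Neither window held TTCNNNGAA, the element bound by STAT factors, which is found in 8.30% of windows. No match overlapped another. These matches are letters in a window and do not show binding.

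Nos2, Ass1 and Slc7a2 led the 10 genes in every lung, in that order, and Arg2 came next in each. Per kilobase of exon, Nos2 averaged 78.2 ± 38.5 CPM, Ass1 55.6 ± 15.5, Slc7a2 27.4 ± 8.21 and Arg2 12.1 ± 1.53. Nos2 ranked 604th, Ass1 918th, Slc7a2 1967th and Arg2 4406th of the 17636 genes that passed the filter. Nos2 and Ass1 lay closer together than the mice lay apart, since Ass1 in mouse 4 (72.3) exceeded Nos2 in mice 5 and 6 (49.7 and 62.8). Gch1, Nos3 and Asl were near each other at 5.73 ± 0.289, 5.34 ± 0.644 and 4.96 ± 0.436 CPM per kilobase, in the order Gch1, Asl and Nos3 in mice 4 and 6 but Nos3, Gch1 and Asl in mouse 5. Slc7a1 followed at 1.83 ± 0.0808, and Arg1 and Nos1 were the lowest at 1.03 ± 0.166 and 0.821 ± 0.571 CPM per kilobase, Nos1 above Arg1 in mouse 4 only. In the means of the 3 mice, the first 3 places held with the longest transcript or the mean coding transcript as the length. In mice 5 and 6, however, Ass1 stood above Nos2 with either of these lengths. Asl moved from place 7 with the exon union to place 4 with the mean coding transcript.

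**Figure D1:**
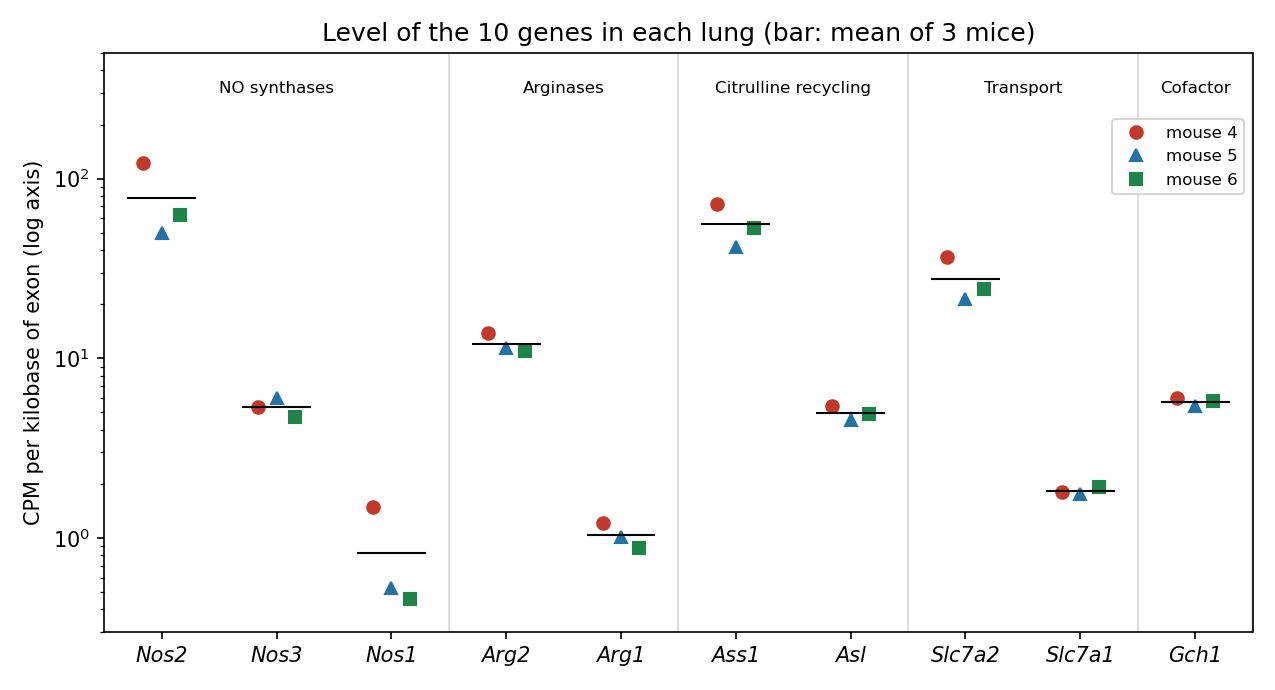
Level of each gene in CPM per kilobase of exon (log axis) in mice 4, 5 and 6, grouped by role, with a bar at the mean of the 3 mice. Nos2, Ass1 and Slc7a2 are the 3 highest in every lung, and Nos1 and Arg1 the 2 lowest.

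The inducible synthase was the main nitric oxide synthase transcript. Nos2, the inducible enzyme (ENSMUSG00000020826, chromosome 11, 78920787 to 78960254, plus strand), had 23174, 7928 and 8791 counts, or 538, 219 and 277 CPM. Mouse 4 stood well above the others, and the 95% exact Poisson intervals (531 to 545, 214 to 224 and 271 to 283 CPM) were separate in all 3 pairs of mice. The level in mouse 4 was 2.45 times that in mouse 5 and 1.94 times that in mouse 6.

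Nos3, the endothelial synthase that keeps vessels dilated (ENSMUSG00000028978, chromosome 5, 24364810 to 24384474, plus strand), had 22.1, 24.8 and 19.4 CPM. It varied 1.27-fold from the highest to the lowest lung. Mouse 5 was the highest, but its interval overlapped that of mouse 4. Nos1, the neuronal synthase, which skeletal muscle also makes (ENSMUSG00000029361, chromosome 5, 117781032 to 117958840, plus strand), had 710, 213 and 161 counts, or 16.5, 5.89 and 5.08 CPM. Mouse 4 had 2.80 times the level of mouse 5 and 3.25 times that of mouse 6, while the intervals of mice 5 and 6 overlapped. Without mouse 4 its mean was 5.48 CPM, against 9.15 CPM over all 3.

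Per kilobase, Nos2 stood 22.8, 8.30 and 13.4 times above Nos3 in mice 4, 5 and 6, a mean log2 ratio of 3.77 ± 0.73. It stood 82.5, 94.1 and 138 times above Nos1 (log2 6.68 ± 0.39). Nos3 exceeded Nos1 by 3.61, 11.3 and 10.3 times (log2 2.91 ± 0.92), the gap being narrowest where Nos1 was high. Each of the 9 ratios between members computed here had the same direction in 3 of 3 mice, with p = 0.25 in an exact two-sided sign-flip test, the smallest value that 3 mice allow, so that none could pass 0.05. With the mean coding transcript as the length, Nos2 stood 52.7 times above Nos1 (geometric mean), against 102 times with the exon union, and Nos3 3.52 times above Nos1, against 7.51 times.

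Arginase transcripts were mostly Arg2. Arg2, the mitochondrial arginase made by many tissues (ENSMUSG00000021125, chromosome 12, 79130777 to 79156301, plus strand), had 849, 591 and 495 counts, or 19.7, 16.3 and 15.6 CPM. Its interval in mouse 4 was separate from those of the other mice, at a difference of only 1.21-fold and 1.26-fold. Arg1, the cytosolic arginase of liver and of alternatively activated macrophages (ENSMUSG00000019987, chromosome 10, 24915221 to 24927484, minus strand), had 116, 82 and 62 counts, or 2.69, 2.27 and 1.96 CPM. Its intervals overlapped in every pair of mice (2.23 to 3.23 CPM in mouse 4 and 1.80 to 2.81 in mouse 5, with an upper bound of 2.51 in mouse 6), and the range was 1.38-fold.

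Arg2 stood 11.4, 11.2 and 12.5 times above Arg1 per kilobase (log2 3.55 ± 0.08), the most even of the 9 ratios. With the longest transcript as the length this ratio was 7.75 (geometric mean), against 11.7 with the exon union. Nos2 exceeded Arg2, the leading arginase, by 8.83, 4.34 and 5.75 times (log2 2.59 ± 0.52), a far smaller distance than to Arg1, at 101, 48.8 and 71.6 times (log2 6.14 ± 0.52). Of the 1428 bases of Arg2 exon, 285 lie over exons of Vti1b on the opposite strand, a gene with 3670, 3668 and 3057 counts. Whether counting used strand is unknown here, and reads of that stretch cannot be assigned with certainty. Nos3 shares 294 exon bases with Atg9b (185, 77 and 66 counts) and 1040 with the antisense gene Gm15587 (45, 64 and 52 counts), and Slc7a2 shares 635 with Gm26584 (3, 1 and 0 counts).

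Of the enzymes that rebuild arginine from citrulline, Ass1 was abundant and uneven and Asl moderate. Ass1, argininosuccinate synthase (ENSMUSG00000076441, chromosome 2, 31470207 to 31520672, plus strand), had 7517, 3633 and 4057 counts, or 174, 100.5 and 128 CPM. Mouse 4 was the highest and mouse 5 the lowest, 1.74-fold apart, with separate intervals in all 3 pairs. Asl, argininosuccinate lyase (ENSMUSG00000025533, chromosome 5, 130011258 to 130029247, minus strand), had 26.2, 22.0 and 23.6 CPM, and mouse 6 overlapped both others. Ass1 stood 13.3, 9.12 and 10.8 times above Asl per kilobase (log2 3.45 ± 0.27), a ratio of 4.52 with the mean coding transcript as the length, against 11.0 with the exon union.

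Uptake of arginine was represented mainly by Slc7a2. This gene of the cationic amino acid transporter CAT2, whose transcript is induced with Nos2 in activated mouse macrophages (ENSMUSG00000031596, chromosome 8, 40862396 to 40922308, plus strand), had 14466, 7025 and 7042 counts, or 336, 194 and 222 CPM. Mouse 4 was 1.73 times mouse 5 and 1.51 times mouse 6. Slc7a1, the widely made transporter CAT1 (ENSMUSG00000041313, chromosome 5, 148327410 to 148399904, minus strand), had 20.9, 20.2 and 22.1 CPM, the narrowest range of the 10 genes at 1.09-fold, with overlapping intervals in every pair. Slc7a2 exceeded Slc7a1 by 20.3, 12.1 and 12.7 times per kilobase (log2 3.87 ± 0.41), a geometric mean of 6.37 with the mean coding transcript as the length, against 14.6 with the exon union.

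Gch1, GTP cyclohydrolase, the first and rate-limiting enzyme of tetrahydrobiopterin synthesis (ENSMUSG00000037580, chromosome 14, 47153895 to 47189413, minus strand), was nearly the same in the 3 lungs at 37.5, 33.9 and 36.0 CPM. The intervals overlapped in every pair, and the range was 1.11-fold. Nos2 stood further above its cofactor enzyme in mouse 4 than in mice 5 and 6, at 20.3, 9.16 and 10.9 times per kilobase (log2 3.66 ± 0.60). The ratio was 6.51 with the mean coding transcript as the length, against 12.7 with the exon union.

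**Figure D2:**
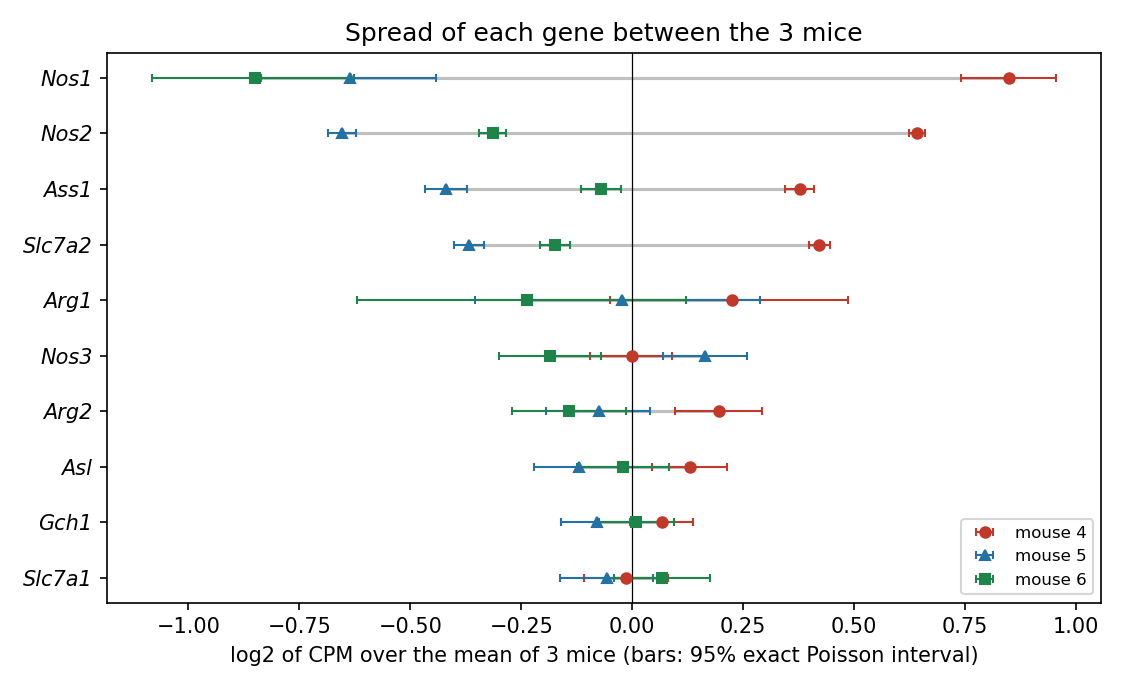
log2 of each gene's CPM over its mean of 3 mice (x axis), one row per gene from the widest range at the top to the narrowest, with 95% exact Poisson intervals that cover counting error only. Mouse 4 lies apart from both others for Nos1, Nos2, Ass1 and Slc7a2 and, by a smaller step, for Arg2. The 3 mice overlap for Slc7a1, Gch1 and Arg1.

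The 10 genes fell into some that were high in mouse 4 and others that differed less between lungs. Nos1, Nos2, Ass1 and Slc7a2 were more than 1.5-fold higher in mouse 4 than in mouse 5 (4 of 10, where 8.20% of all 17636 tested genes were), and Nos1, Nos2 and Slc7a2 than in mouse 6 (3 of 10, where 5.30% were). Ass1 was 1.36-fold above mouse 6. Slc7a2 lay close to the threshold there, at 1.51-fold, and with library totals alone as the scaling it was 1.48-fold higher, which left 2 of the 10. The 3 genes past this fold over both other mice compare with 3.49% of all genes. None of the 10 was more than 1.5-fold lower in mouse 4 than in mouse 5 (7.61% of all genes) or mouse 6 (5.48%), and none differed by this much between mice 5 and 6 (9.96% in either direction). The median ratio of mouse 4 to mouse 5 was 1.197 over the 10 genes and 1.002 over all genes, and that of mouse 4 to mouse 6 was 1.31 over the 10 genes and 0.999 over all. Each of these ratios sets 1 library against another and has no replicate check.

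Separate Poisson intervals were more common than large folds in these deep libraries. Between mice 4 and 5 they separated 6 of the 10 genes, all higher in mouse 4, where 22.0% of all genes were separated in that direction. Between mice 4 and 6 they separated 5, all higher in mouse 4, against 17.6% of all genes in that direction. Between mice 5 and 6 they separated Nos2, Ass1 and Slc7a2, lower in mouse 5, and Nos3, higher in mouse 5 (4 of 10, against 35.5% of all genes in either direction). Separation was also common among the 71 other pathway genes that passed the filter, whose lists follow below. Between mice 4 and 5, 50 of these 71 were separated, 27 higher and 23 lower in mouse 4. Between mice 4 and 6 it was 32, 20 higher and 12 lower, and between mice 5 and 6 it was 36. Higher counts give relatively narrower intervals, so separation also depends on the level of a gene.

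Among the 10917 genes with a mean of 10 CPM or more, the median range from the highest to the lowest mouse was 1.17-fold. Nos2 had a wider range than 98.9% of them, Ass1 than 95.9% and Slc7a2 than 95.7%. Nos3 and Arg2 lay at 71.5% and 69.7%, Asl at 54.6%, Gch1 at 26.4% and Slc7a1 at 20.8%. Nos1 and Arg1 averaged under 10 CPM and are not placed.

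**Figure D3:**
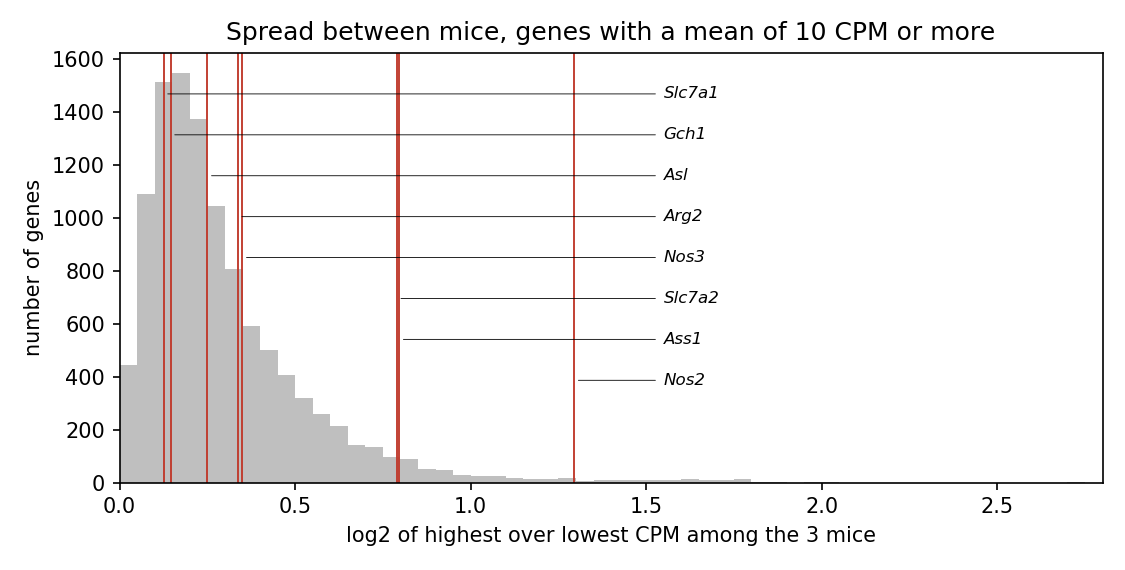
Number of genes (y axis) by log2 of the highest over the lowest CPM among the 3 mice (x axis), for the 10917 genes with a mean of 10 CPM or more. Red lines mark the 8 members at that level, from Slc7a1 and Gch1 among the even genes to Ass1, Slc7a2 and Nos2 in the upper tail.

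Marker genes of several cell types moved with these genes between the lungs. All 6 skeletal muscle markers (Acta1, Ckm, Myh1, Myh4, Tnnt3 and Tnni2) were detected and all 6 were more than 1.5-fold higher in mouse 4 than in both other mice, like Nos1. Set against their sum, Nos1 was nearly constant at 3.44, 3.35 and 3.37 CPM per 1000 marker CPM in mice 4, 5 and 6, a range of 1.03-fold where Nos1 alone ranged 3.25-fold. This ratio was chosen after the values were seen. The 4 squamous epithelium markers were also more than 1.5-fold higher in mouse 4 than in both others. The sum of these 4 was 2.70 and 3.11 times higher in mouse 4 than in mice 5 and 6. The muscle sum was 2.72 and 3.18 times higher and Nos1 2.80 and 3.25 times, so the likeness of Nos1 is not particular to muscle markers. Of the 3 neuron markers, Tubb3 alone reached 1 CPM in each mouse, and their sum was 6.92, 3.71 and 7.10 CPM. The part of muscle or of other cells in the Nos1 level was not tested.

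The 8 macrophage markers were all detected and summed to 2032, 1277 and 1616 CPM, 1.59 times higher in mouse 4 than in mouse 5 and 1.26 times higher than in mouse 6. Of these 8, 4 were more than 1.5-fold higher in mouse 4 than in mouse 5, only Cd68 was more than 1.5-fold higher in mouse 4 than in mouse 6, and Mrc1 was lowest in mouse 4 at 40.1, 51.3 and 47.3 CPM. Per 1000 CPM of these markers Nos2 stood at 265, 172 and 172 CPM, so that mouse 4 remained 1.54 times above both others. Slc7a2 stood at 165, 152 and 137 on the same scale, a range of 1.202-fold, and Ass1 at 85.9, 78.7 and 79.2, a range of 1.09-fold. Arg1 stood at 1.33, 1.78 and 1.21. These ratios too were chosen after the values were seen, and the part of macrophage content in the Nos2, Slc7a2 and Ass1 levels was not tested beyond them.

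The 6 endothelial markers summed to 1287, 1825 and 1360 CPM, highest in mouse 5, as Nos3 was, though for Nos3 mice 4 and 5 overlapped. The markers were lowest in mouse 4 and Nos3 in mouse 6. Per 1000 CPM of these markers Nos3 stood at 17.1, 13.6 and 14.3 CPM, a range of 1.26-fold where Nos3 alone ranged 1.27-fold. The 4 markers of group 2 innate lymphoid cells, which can make Arg1, summed to 24.2, 27.8 and 28.8 CPM. The hepatocyte markers, of a tissue rich in Arg1, summed to 3.92, 12.3 and 1.48 CPM with no like order in Arg1. Neutrophil markers summed to 268, 235 and 177 CPM. No marker in these lists had 0 counts in all 3 libraries.

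**Figure D4:**
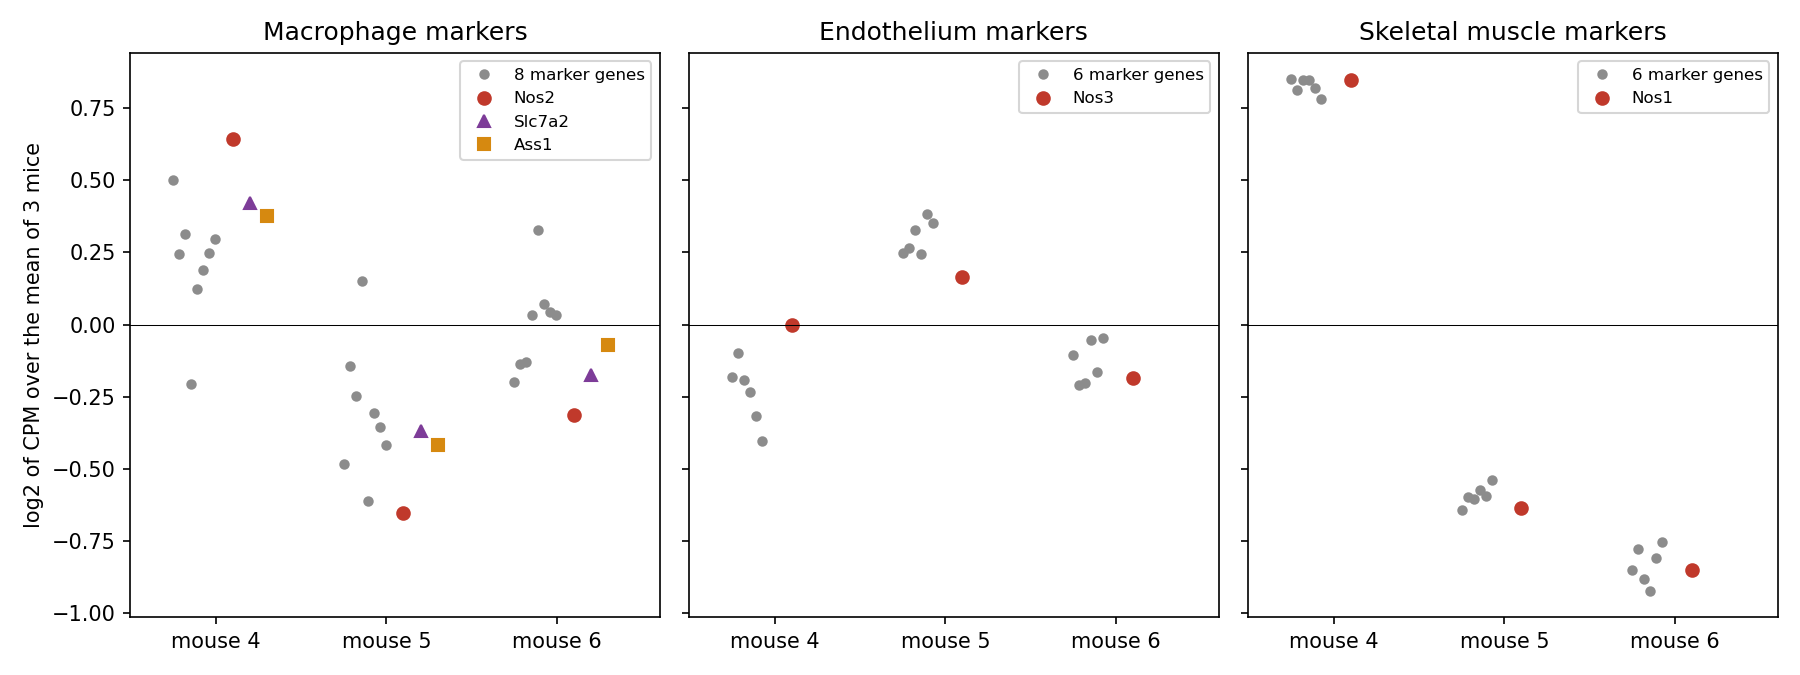
log2 of CPM over the mean of 3 mice (y axis) in each mouse for marker genes of macrophages, endothelium and skeletal muscle (grey) and for Nos2, Slc7a2 and Ass1, Nos3 and Nos1 (coloured). Nos1 lies among the 6 muscle markers in every lung, and Nos2 lies above all 8 macrophage markers in mouse 4.

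The pattern of Nos2 over the 3 mice was set against all 10915 other genes with a mean of 10 CPM or more, as the Euclidean distance between centred log2(CPM + 0.5) values. With 3 mice such likeness is a description only. The nearest genes were Orm1, an acute-phase protein, at a distance of 0.0616 (55.9, 23.9 and 29.6 CPM), the mitochondrial creatine kinase Ckmt2 at 0.0743, the ankyrin Ank1 at 0.0910, the antibody segment Ighv7-3 at 0.117 and the chemokine Ccl5 at 0.121 (712, 325 and 402 CPM). In all, 3 genes lay within 0.1. Of the members, Slc7a2 ranked 83rd at 0.368 and Ass1 124th at 0.412, ahead of Arg2 at 0.734 (rank 1103), Asl at 0.777 (rank 1520), Gch1 at 0.855 (rank 2814), Slc7a1 at 0.945 (rank 5239) and Nos3 at 1.03 (rank 7584).

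Few other genes of the pathway differed by more than 1.5-fold between lungs, as few of all genes did. Of 78 further genes in 9 lists, 65 reached 1 CPM in each mouse and 71 passed the filter. Slc7a8, Tnf and Il10 were more than 1.5-fold higher in mouse 4 than in mouse 5, and Cav1, Ddah1, Prkg1 and Slc7a4 more than 1.5-fold lower (3 and 4 of 71, beside 8.20% and 7.61% of all genes). Against mouse 6, Slc7a8, Gamt and Prkg1 were higher in mouse 4 and Gchfr lower (3 and 1 of 71, beside 5.30% and 5.48%). Prkg1 was only just past the threshold there, at 1.5005-fold on 53 and 26 counts, and Gchfr had 23 and 28 counts. Both had overlapping intervals in that pair. With library totals alone as the scaling, 8 in place of 7 genes passed between mice 4 and 5, and 3 in place of 4 between mice 4 and 6. Between mice 5 and 6, Prkg1 and Cav1 were 2.77-fold and 1.75-fold higher in mouse 5, and Il10, Ifng and Tnf lower (5 of 71 in all, beside 9.96%). Slc7a8 alone was higher than in both, as 1 of 71, where 3.49% of all genes were.

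The other genes of tetrahydrobiopterin synthesis and recycling did not share the high level of Nos2 in mouse 4. Qdpr, which regenerates the cofactor, had 54.2, 53.2 and 53.6 CPM, Spr, which completes its synthesis, averaged 51.9 ± 5.10 CPM and Pcbd1, also of recycling, 7.38 ± 0.704 CPM. The list of 6 genes summed to 165, 175 and 172 CPM. Gchfr, which encodes the feedback regulator of Gch1, had 23, 23 and 28 counts.

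Partners of the synthases spanned a wide range of levels. The chaperone Hsp90ab1 averaged 1623 ± 81.8 CPM and Calm2, a calmodulin gene, 346 ± 33.0 CPM, while Nos1ap, an adaptor of the neuronal synthase, had 66, 43 and 49 counts. Cav1, whose product binds and restrains the endothelial synthase, stood at 344, 603 and 345 CPM, high in mouse 5 like the endothelial markers. Among genes that handle methylarginine inhibitors, Ddah2 and Prmt1 averaged 52.1 ± 9.31 and 53.9 ± 2.26 CPM. Ddah1, which breaks these inhibitors down, had 12.7, 21.5 and 17.8 CPM and was lowest in mouse 4.

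The nitric oxide receptor, guanylate cyclase, did not share the order of Nos2. Its subunit genes Gucy1b1 and Gucy1a1 had 44.9, 65.4 and 44.2 CPM and 82.1, 102 and 75.5 CPM, both highest in mouse 5. Adh5, which breaks down S-nitrosoglutathione, was even at 62.4 ± 3.19 CPM.

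Of the 15 ornithine and polyamine genes, which lie downstream of arginase, 13 passed the filter. Otc, of the liver's urea cycle, and Agmat, agmatinase, did not, at 12, 10 and 1 and at 2, 5 and 1 counts. Sat1, which acetylates polyamines for export, averaged 292 ± 6.29 CPM, Oaz1, the antizyme that restrains ornithine decarboxylase, 229 ± 13.5 and ornithine aminotransferase, Oat, 147 ± 13.7 CPM. Of these 13, 1 was past 1.5-fold in any pair of mice. This was Gamt, an enzyme of creatine synthesis (12.9, 9.10 and 7.35 CPM), between mice 4 and 6. Gatm, which precedes it in that synthesis, ranged 1.47-fold (45.9, 31.3 and 41.1 CPM). In the proline and citrulline supply list 0 of the 6 genes that passed the filter were past 1.5-fold in any pair. Such counts over short lists lie near the shares of all genes given above. Glul, glutamine synthetase, averaged 353 ± 13.7 CPM. Of the transporters, Slc3a2, the shared heavy chain, averaged 240.0 ± 11.3 CPM and Slc7a7, which exports cationic amino acids, 26.6 ± 2.05 CPM. Slc7a8, a transporter of neutral amino acids, had 53.3, 25.6 and 34.2 CPM, high in mouse 4 like Nos2.

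All 14 inducers of Nos2 reached 1 CPM in each mouse, and 10 of them were highest in mouse 4. The share of all genes highest in mouse 4 was not computed. Over the 14 inducers the median ratio of mouse 4 was 1.22 to mouse 5 and 1.07 to mouse 6. Those of all genes were 1.002 and 0.999. Hif1a, the hypoxia-inducible transcription factor, had 134.7, 94.4 and 101 CPM, and Jak2, a kinase of the interferon-gamma receptor, 116.0, 86.6 and 90.8 CPM. Irf1, a transcription factor needed for Nos2 induction in mouse macrophages, had 442, 359.9 and 503 CPM, highest in mouse 6. Ifng, interferon-gamma itself, had 9.73, 6.50 and 12.3 CPM, also highest in mouse 6, and Tnf had 43.0, 27.0 and 41.4 CPM. The receptor genes Ifngr1 and Tnfrsf1a averaged 198 ± 1.44 and 173 ± 11.9 CPM. The list summed to 2476, 2024 and 2397 CPM, lowest in mouse 5 as Nos2 was, but with mice 4 and 6 only 1.03-fold apart where Nos2 differed 1.94-fold.

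Of the 7 inducers of Arg1, 4 reached 1 CPM in each mouse. The signalling genes Cebpb, Stat6 and Il4ra averaged 246 ± 30.6, 159 ± 10.4 and 162 ± 12.6 CPM. Of the 4 cytokines in the list, Il4 and Il13 were scarce, with 5, 1 and 0 counts of Il4 and 1, 0 and 0 of Il13. These are too few to compare the lungs. Csf2, however, had 398, 304 and 324 counts, a mean of 9.29 ± 0.906 CPM, and Il10 had 67, 29 and 50 counts.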

How the data were processed

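The authors deposited raw counts per Ensembl gene, 1 column per mouse, with no normalization. Per the submitters' processing notes, bcl2fastq 2.17, STAR 2.5.2a on mm10 and Trim Galore 0.6.2 were used. The counter, its annotation and its strand setting are not given in the sources. GENCODE release M21 of the same build gave symbols, coordinates (1-based) and exon lengths for 53237 of 53342 identifiers. Totals were 43845715, 35674761 and 31579465 counts for mice 4, 5 and 6.

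Counts were filtered with filterByExpr (17636 genes) and scaled with TMM factors of 0.9825, 1.0136 and 1.0041 (edgeR 4.0.16, R 4.3.3). Python 3.11.15 with scipy 1.17.1, numpy 2.4.6 and pandas 2.3.3 gave levels, ratios and exact 95% Poisson intervals. Each interval comes from the count of 1 library and covers counting error only, not the spread between mice. No molecular identifiers enter these counts, so the intervals may be too narrow even for counting error. With 1 group no contrast was fitted. The samples come from 3 mice, per the series' design text. The code for folds between mice and interval overlap was checked on simulated Poisson counts. Apart from the folds set in them, these hold no spread between mice, so the check covers the code and not the error model. DESeq2 1.42.0 size factors were an alternative. The ratio of Nos3 to Nos1 and the ratios to marker sums were added after the data were seen.

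The members and lists were chosen with earlier results of these data known. Genes named are all members, the 3 highest per kilobase in each pathway list, any list gene past 1.5-fold in mouse 4 over both other mice, and the 5 genes nearest to Nos2; others were chosen after their values were seen. Some genes that this rule names are not reported here.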

Additional observations from a re-analysis of the deposited data

How the results depend on the processing

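Scaling with DESeq2 size factors or library totals alone, other thresholds, pseudocounts, lengths and the omission of each mouse gave 152 alternative values. Of the 89 for levels and counts of genes, 87 moved by less than the spread between mice (levels) or by no more than 1.5 times (counts). The other 2 came from a 2-fold threshold, which left 2 members (Nos1 and Nos2) higher in mouse 4 than in mouse 5 and 1 (Nos1) higher than in mouse 6. Without 1 of the mice the mean of Nos1 lay between 5.48 and 11.2 CPM and that of Nos2 between 248 and 408 CPM, the lower values without mouse 4. Library totals alone left 2 members in place of 3 higher in mouse 4 than in mouse 6. The 63 alternatives of the 9 ratios all kept their direction, but 17 moved by more than the spread between mice. These were 6 of 9 with the mean coding transcript, 4 of 9 with the longest transcript and 6 of 9 with no length scaling. With 0.5 CPM added it was 1 of 9, and without 1 mouse 0 of 27. That last count was fixed in advance, because leaving out 1 of 3 mice always moves a mean by less than the SD. The same holds for the levels without 1 mouse among the 87. Nor could the number of genes at 1 CPM fall when a mouse was left out. These omissions therefore do not test how stable the results are. The exon union counts every annotated exon, and which transcripts were made is not known from gene counts. No paired analysis was possible because all samples belong to 1 group. With 62 to 116 counts, Arg1 has the least precise level of the 10 genes.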
